A study of Danio rerio with 96 samples.

Results

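Zebrafish larvae kept in folic acid (FA) without irradiation were compared between 60 and 84 h post-fertilization (hpf). The libraries were chosen by their labels as those of the FA group at these time points, which gave 6 libraries at 60 hpf and 6 at 84 hpf, 12 of the 96 in the series. A single larva, taken whole, went into each library. All fish belonged to an albino line, slc45a2 b4/b4, whose melanophores lack melanin. FA was added at 35 hpf to 200 μM and was kept in the medium until sampling. The control larvae (Cont) of the same ages received the medium alone, and FA + XR larvae received FA in the same way and 8 Gy of X-rays at 36 hpf. XR larvae received 8 Gy of X-rays at 36 hpf without FA. There were 6 libraries of each of these groups at each time point. Each group was held in a well of its own, and how the larvae of 1 group were divided between wells or clutches at 60 and 84 hpf is not given in the sources used here, so that an effect of the well cannot be told apart from that of age or of FA. The p values take larvae as replicates. Ages apart by 24 h were compared within FA. The larvae of 84 hpf had also spent 24 h longer in FA, so age and time in FA cannot be told apart within FA. FA is set against its absence only where the change is compared with that of Cont.

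In zebrafish the interval covers hatching and the start of independent life. The hatching gland, which releases enzymes that digest the egg envelope, is used up, cone photoreceptors mature and the larva begins to see. The liver, the exocrine pancreas and the gut become functional while the yolk is still being consumed, and the first wave of red cells carries embryonic globins. FA is a precursor of the folates, which carry one-carbon units for the synthesis of purines and thymidylate and for the remethylation of homocysteine to methionine. In RNA from a whole larva, fewer cells of a type and less RNA per cell cannot be told apart.

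The data are counts of reads per gene. Levels are given as log2 CPM (reads of a gene relative to the library total), scaled with TMM factors, which correct library sizes for differences in composition. A gene without a count in a library has a level of -1.04. Groups are described by their lowest, median and highest library. Differences were tested with edgeR's quasi-likelihood test, and all adjusted p values below are those of this test with Benjamini-Hochberg adjustment. The adjustment was over 16314 genes, and over 16359 in the fit without 2 libraries that is described below. A gene was called where the adjusted p was below 10%. Gene symbols are those of the table of gene IDs used, which gives some zebrafish genes a symbol in capitals without the letter that marks the copy.

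Total counts lay between 767872 and 15553304 for the larvae of 60 hpf and between 423265 and 8530530 for those of 84 hpf. The libraries of 5295573 and 2586967 counts at 60 hpf stood apart from all others. Their TMM factors were 0.510 and 0.572, against 0.796 to 1.33 in the other 46 libraries of 60 and 84 hpf. Genes of cytosolic ribosomal proteins took 24.7% and 24.6% of their counts, against 19.4% to 22.7% in the other 4 FA libraries of 60 hpf and 16.5% to 18.8% in FA at 84 hpf. The counts of the lists with many calls are therefore also given without these 2 libraries, a choice made after the data were seen. Of 26 marker genes of tissues, 21 were matched and all 21 had a count in every FA library of 84 hpf, among them those of muscle, liver, pancreas, cone photoreceptors, lens, erythrocytes, cartilage, skin and hatching gland.

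**Figure D1:**
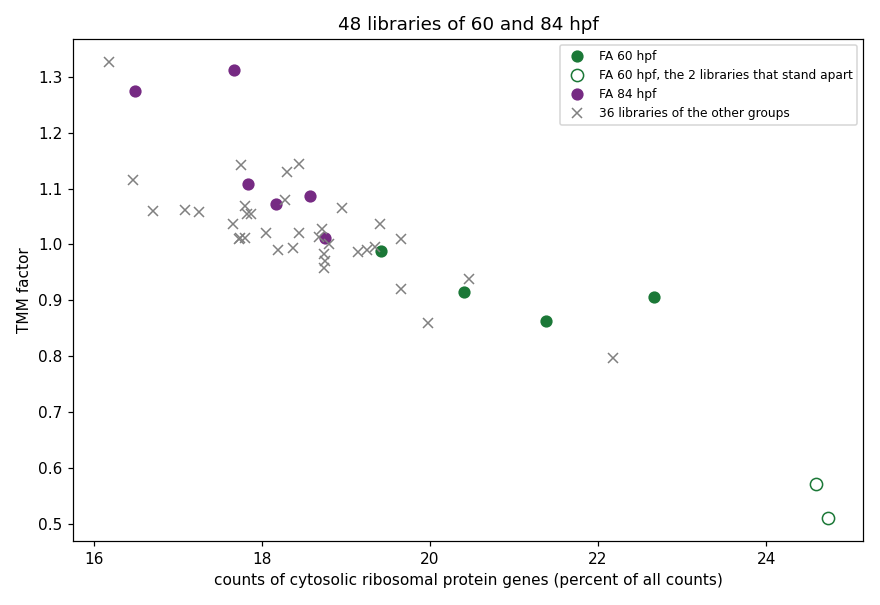
TMM factor (vertical axis) against the share of counts from cytosolic ribosomal protein genes (horizontal axis, percent of all counts) in the 48 libraries of 60 and 84 hpf, 1 point per library. The 2 open circles are the FA libraries of 60 hpf with factors of 0.510 and 0.572, and the other 46 libraries lie between 0.796 and 1.33.

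Between 60 and 84 hpf, 3256 of 16314 genes (20%) changed in FA. Of these, 1454 rose (8.91%) and 1802 fell (11%). The change was at least 2-fold in 809 of the genes that rose (4.96%) and in 503 of those that fell (3.08%). The 6 libraries of 60 hpf and the 6 of 84 hpf did not overlap in 345 genes that were higher at 84 hpf (2.11%) and in 478 that were lower (2.93%). Without the 2 libraries that stood apart, 1398 genes (8.55%) were called, 660 higher (4.03%) and 738 lower (4.51%). Of the genes called with all 12 libraries, 608 that rose and 703 that fell were called again in the same direction, and 0 were called in the opposite direction. The median log2 fold change of all genes was 0.06 with TMM factors and 0.55 when libraries were scaled to their totals alone. With that scaling 5582 genes were called higher and 457 lower, so that higher calls made up 92.4% of the calls in place of 44.7%. Small falls therefore depend on the scaling, and a fall is relative to the median gene.

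The plot of 19 gene lists shows which tissues the large changes belonged to. Of the lists plotted, exocrine pancreas, intestine and phototransduction had the highest medians, and globins and hatching gland the lowest. Counts of calls in a list are to be read against 8.91% of all genes that rose and 11% that fell. Without the 2 libraries these shares were 4.03% and 4.51%. For groups that did not overlap they were 2.11% higher at 84 hpf and 2.93% lower.

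**Figure D2:**
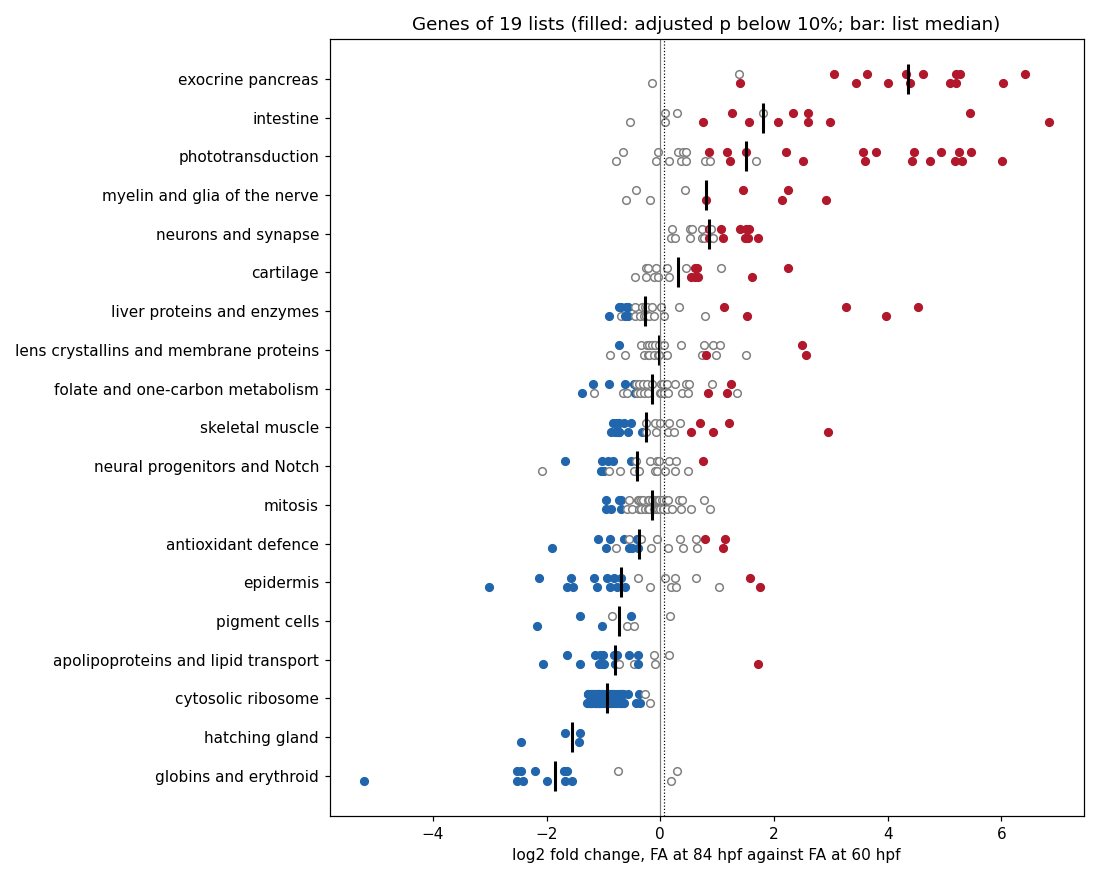
Log2 fold change of FA at 84 hpf against FA at 60 hpf (horizontal axis) for the tested genes of 19 lists, 1 point per gene. Red points rose and blue points fell (adjusted p below 10%, edgeR), open points were not called, black bars are the medians of the lists (4.35 for exocrine pancreas at the top and -1.85 for globins at the bottom) and the dotted line is the median of all genes; the lowest globin point is hbaa1, which had 1 count at 84 hpf.

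Digestive enzymes of the exocrine pancreas rose in nearly all measured genes of the list. Of 16 genes tested (24 symbols listed, 18 IDs matched), 14 rose, 0 fell, and the median log2 fold change was 4.35. Without the 2 libraries 14 rose as well, with a median of 4.62. In 11 of the 16 the libraries of the 2 time points did not overlap and those of 84 hpf were higher, against 2.11% of all genes. The trypsin-like protease gene prss59.2 ran from 0.98 to 3.40 (median 2.21) at 60 hpf and from 6.83 to 9.74 (median 7.91) at 84 hpf. All larvae of 84 hpf were above all larvae of 60 hpf, by a log2 fold change of 6.41 ± 0.51 (SE, adjusted p = 3.39e-15). The trypsinogen gene prss1 ran from 2.18 to 4.43 (median 3.41) and from 6.38 to 8.86 (median 7.07), again without overlap, and rose by 4.01 ± 0.38 (adjusted p = 1.48e-12). The chymotrypsinogen gene ctrb.1 rose by 5.20 ± 0.53 from a narrow range of 1.6 to 2.27 to a wide one of 4.81 to 8.37. Elastase genes rose too, ela2 by 6.02, ela2l by 5.28 and ela3l by 5.20, as did procarboxypeptidases (CPB1, 3.63, and 2 IDs named CPA1, 4.39 and 3.45). At 60 hpf the median of ela2 was -1.04, the level of a gene without a count, and its highest library was at 0.17. The amylase gene amy2a had 3 counts in all larvae of 60 hpf together and 111 at 84 hpf. PTF1A, the transcription factor that specifies acinar cells, had a value of -0.14 and was not called.

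In this list the larvae of 84 hpf had a wider range than those of 60 hpf. At 60 hpf some of its genes, such as ela2 and amy2a, lay at or near the level without a count. Their levels could not go lower there, so the ranges of the time points are not like measures of spread. The mean level over the 16 genes lay between 0.86 and 1.40 log2 CPM at 60 hpf and between 3.33 and 6.03 at 84 hpf, and the highest library of 84 hpf was that of 4175568 counts. In Cont the same mean lay between 0.68 and 1.51 at 60 hpf and between 3.90 and 5.73 at 84 hpf.

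Genes of the absorbing gut rose in 10 of 15 tested (23 symbols, 18 IDs), with a median of 1.80, and 0 fell. Without the 2 libraries 9 rose. FABP6, a bile acid carrier of the ileum, had no count in 3 of the 6 larvae of 60 hpf and 10 counts in all of them together. At 84 hpf it had 953 counts and a level of 4.06 to 7.07 (median 4.93). The log2 fold change was 6.84 ± 0.65 (adjusted p = 2.41e-12), and the time points did not overlap. SLC10A2, which takes up bile acids from the gut lumen, rose by 2.60. The tight junction gene cldn15la ran from 2.72 to 4.46 (median 3.82) and from 5.18 to 6.40 (median 5.75) and rose by 2.07 ± 0.24 without overlap. VIL1, which encodes villin of the microvilli, rose by 2.59 ± 0.34, SLC5A1, a glucose transporter, by 2.98 and MOGAT2, a triglyceride-forming enzyme, by 2.34. FABP2, an intestinal fatty acid carrier, was not called (0.30, adjusted p = 0.476). Its levels were 7.40 to 8.80 at 60 hpf and 7.53 to 9.49 at 84 hpf, so that it was already present at 60 hpf.

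Genes of the liver moved in both directions. Of 28 genes tested (35 symbols, 30 IDs), 5 rose (17.9%) and 7 fell (25%), against 8.91% and 11% of all genes. Their median was -0.26 (0.35 with total count scaling). The genes that rose were fabp10a (3.28 ± 0.34), the hepatocyte fatty acid carrier, TTR (3.97 ± 0.52), a carrier of thyroid hormone, GC (4.54 ± 0.46), the vitamin D carrier, uox (1.53), the enzyme that degrades urate, and hpda (1.13), an enzyme of tyrosine breakdown. fabp10a ran from 3.59 to 5.58 (median 4.57) at 60 hpf and from 6.99 to 8.85 (median 7.94) at 84 hpf. GC was without a count in 3 larvae of 60 hpf and TTR in 4, and neither was at 0 in a larva of 84 hpf. The genes that fell include the fibrinogen genes FGG (-0.72) and FGB (-0.69), BHMT (-0.63) and serpina1 (-0.56), a protease inhibitor of the plasma. Without these 2 larvae 4 rose and 2 fell, and the median was 0.14.

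Apolipoprotein genes, whose products carry lipids from the yolk and liver, mostly fell. Of 21 genes tested (28 symbols, 23 IDs), 15 fell and 1 rose, with a median of -0.80, and without the 2 libraries 9 fell and 1 rose, with a median of -0.42. apoa4a ran from 5.44 to 7.56 (median 6.22) at 60 hpf and from 3.84 to 5.28 (median 4.19) at 84 hpf. It fell by 2.07 ± 0.27 on the log2 scale without overlap (adjusted p = 4.11e-08), and its value was -1.40 without the 2 libraries. apoc1 fell by 1.65 ± 0.22 (-1.17 without the 2 libraries), apoeb by 1.41 and apoa1a by 1.06 ± 0.15 (-0.69). The gene of the list that rose was ldlra, a receptor that takes up lipoproteins (1.73).

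Photoreceptor genes rose strongly, and those of cones led. Of 31 phototransduction genes tested (53 symbols, 41 IDs), 18 rose, 0 fell and the median was 1.5. Without these 2 larvae 16 rose, with a median of 1.18. The green cone opsin gene opn1mw1 ran from 1.79 to 3.40 (median 2.70) at 60 hpf and from 8.08 to 9.13 (median 8.34) at 84 hpf. The groups were far apart, with a log2 fold change of 6.01 ± 0.44 (adjusted p = 1.96e-16). The blue cone opsin gene opn1sw2 rose by 5.30 ± 0.40 and the red cone opsin gene opn1lw2 by 4.46 ± 0.41, both without overlap. A short-wave opsin gene listed as OPN1SW, which was named for its size and not as a member of the list, ran from 3.11 to 5.13 (median 3.92) and from 9.15 to 10.41 (median 9.62) and rose by 5.52 ± 0.40. The transduction proteins of cones rose with the opsins: GNAT2 by 4.74 ± 0.36 and gnb3b by 5.47 ± 0.43 (subunits of transducin), PDE6C by 5.18 ± 0.43 and pde6ha by 5.26 ± 0.38 (subunits of the phosphodiesterase that transducin activates), and grk1b, a kinase that shuts off opsins, by 4.93. gnb3b was at 1.67 or above in 5 larvae of 60 hpf and without a count in the larva of 767872 counts.

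GNAT1, the rod transducin, rose by 2.51, and CNGA1, a channel subunit of rods, had 3 counts in all larvae of 60 hpf and 30 at 84 hpf. NR2E3, a transcription factor of rods, had a value of -0.66, and CRX, which acts in both cell types, one of -0.04. Among 8 genes of the visual cycle and pigment epithelium, rlbp1b, a carrier of retinal, rose by 1.38 ± 0.21 from 2.64 to 4.63 (median 4.29) at 60 hpf to 5.08 to 6.21 (median 5.47) at 84 hpf, and rdh5, a retinol dehydrogenase, rose by 0.64. The gene that fell there, pmela, is a pigment granule gene and had a value of 0.07 with total count scaling. Of 27 lens genes tested, 3 rose (11.1%) and 1 fell (3.7%), against 8.91% and 11% of all genes, and the median was -0.03. The largest rises were those of CRYBB1 (2.57) and crybb1l1 (2.49).

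**Figure D3:**
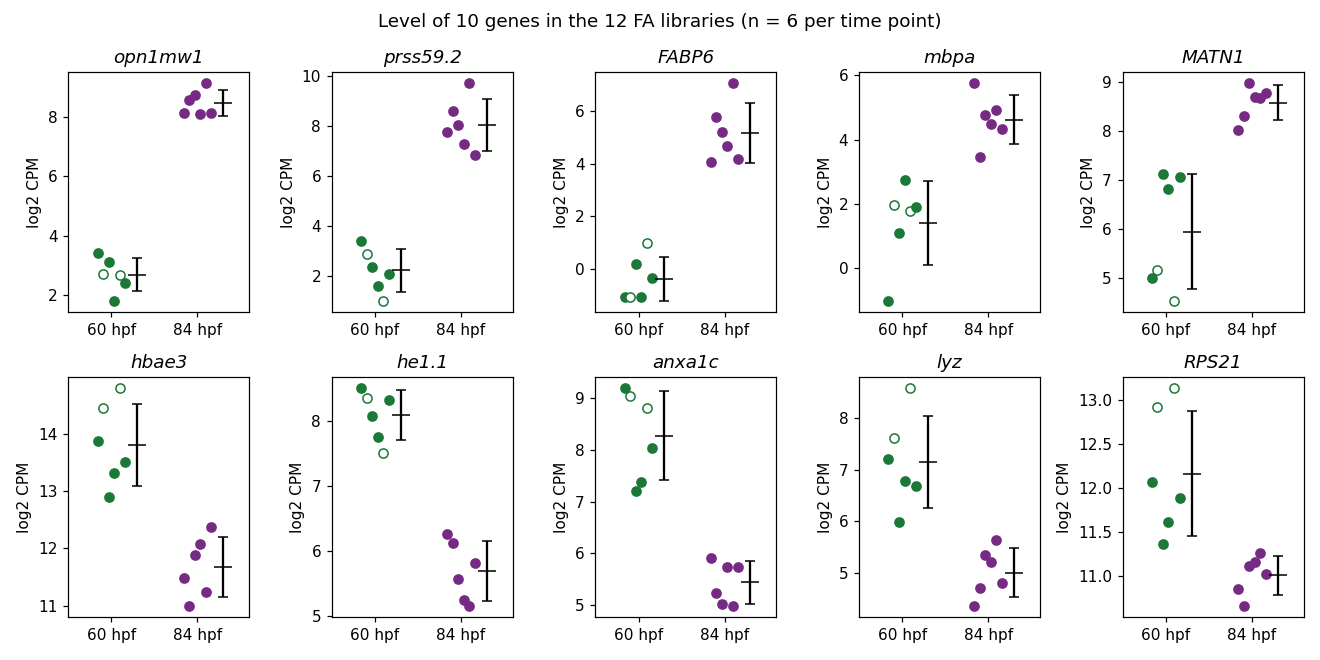
Level of 10 genes (vertical axes, log2 CPM) in the 6 FA larvae of 60 hpf and the 6 of 84 hpf, 1 point per larva, in order of total count within a time point. Open circles are the 2 libraries that stood apart, and bars are mean ± SD over 6 larvae. The 10 genes do not overlap between time points, which was a condition for naming some of them. Of all genes tested, 2.11% did not overlap and were higher at 84 hpf, and 2.93% did not overlap and were lower.

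Some genes of neurons and myelin rose. Of 21 neuronal genes tested (50 symbols, 26 IDs), 10 rose and 0 fell, with a median of 0.87. With the 2 libraries left out, 7 rose and the median was 0.63. The sodium pump subunit gene atp1a3a ran from 4.15 to 6.54 (median 5.65) at 60 hpf and from 7.05 to 7.53 (median 7.52) at 84 hpf, without overlap, and rose by 1.55 ± 0.24. vamp2, a synaptobrevin of synaptic vesicles, rose by 1.72 and SV2A, another vesicle protein, by 1.56 ± 0.26. SLC32A1, the vesicular carrier of GABA, rose by 1.41 and GAD2, which makes GABA, by 1.07. ELAVL3 and gap43, markers of young neurons, had values of 0.57 and 0.27 and were not called. The mean level over the 21 genes was between 3.96 and 4.06 in 3 larvae of 60 hpf, at 2.57 in that of 767872 counts, and at 2.03 and 2.43 in the 2 libraries that stood apart. At 84 hpf it lay between 4.26 and 4.57.

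Of 9 genes of myelin and its glia, 5 rose and 0 fell. The myelin basic protein gene mbpa ran from -1.04 to 2.73 (median 1.85) and from 3.45 to 5.77 (median 4.63) and rose by 2.92 ± 0.37 (adjusted p = 1.63e-08). mbpb, the other copy, rose by 0.80 ± 0.18, and plp1b, which encodes a further membrane protein of myelin, by 2.14. SOX10, OLIG2 and olig1, transcription factors of the myelinating lineages, had values of -0.18, -0.42 and -0.59 and were not called.

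Neural progenitor genes went the other way. Of 24 tested (34 symbols, 25 IDs), 7 fell (29.2%) and 1 rose (4.17%), against 11% and 8.91% of all genes. Without the 2 libraries 8 fell and 0 rose, against 4.51% and 4.03%. With total count scaling 2 fell and 4 rose, against 2.8% and 34.2%. In Cont 14 of the 24 fell and 0 rose, against 3.32% and 6.39% of all genes. The median in FA was -0.41, and 0.07 with total count scaling. her4.1, a target of Notch in progenitors, ran from 5.02 to 6.21 (median 5.62) and from 4.51 to 4.96 (median 4.67) and fell by 1.02 ± 0.19. her12 fell by 1.67 ± 0.36 and neurog1, which starts neuronal differentiation, by 0.99. SOX2 was the gene that rose (0.75), and its value was 0.47 without the 2 libraries (adjusted p = 0.234). With all 12 libraries, counts of cell division genes were close to the 11% of all genes that fell. Of 43 mitosis genes 6 fell and 0 rose (median -0.14, or 0.38 with total count scaling), and of 54 DNA replication genes 7 fell and 2 rose (median -0.24, or 0.31). These counts were 4 and 0, and 5 and 0, without the 2 libraries. In that fit 4.51% of all genes fell, and both lists lay above this share. CDK1, the kinase that drives entry into mitosis, ran from 5.44 to 6.30 (median 5.71) and from 4.93 to 5.31 (median 5.13) and fell by 0.68 ± 0.15, and UBE2C, which acts in mitotic exit, fell by 0.95 ± 0.18. With total count scaling these values were -0.13 and -0.35.

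Cartilage genes rose in 7 of 18 tested (28 symbols, 19 IDs) and 0 fell, with a median of 0.30. MATN1, a matrix protein of cartilage, ran from 4.53 to 7.13 (median 5.98) at 60 hpf and from 8.01 to 8.98 (median 8.68) at 84 hpf, without overlap, and rose by 2.25 ± 0.36 (adjusted p = 3.31e-06). Its value was 1.84 without the 2 libraries. ucmaa, a matrix protein of chondrocytes, rose by 1.62, and cnmd, COL11A2, col9a3, MIA and snorc by 0.53 to 0.67. With the 2 libraries left out, 2 genes of the list were higher and 1 lower. Of 9 bone genes 3 fell (33.3%, against 11% of all genes), COL1A2 by 0.76, col1a1a by 0.63 and SPARC by 0.53. Without the 2 libraries 0 of them were called. With total count scaling col1a1a and SPARC had values of 0.05 and 0.09.

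Muscle genes moved in both directions. Of 27 skeletal muscle genes tested (45 symbols), 5 rose (18.5%) and 13 fell (48.1%), against 8.91% and 11% of all genes. Their median was -0.26. The myosin heavy chain gene myhb ran from -1.04 to 4.08 (median 2.77) and from 4.88 to 6.45 (median 6.01) and rose by 2.95 ± 0.29 (adjusted p = 5.1e-12), and myhz1.2, another heavy chain, rose by 0.71. atp2a1l, a calcium pump, rose by 1.2 ± 0.23. The falls lay between PGAM2 (-0.86) and ckma (-0.32), TNNC2 of fast muscle falling by 0.83 ± 0.14, with pvalb1 to pvalb4, which encode parvalbumins, between -0.79 and -0.75. MYL1 of 1 ID, a light chain of fast muscle, ran from 10.44 to 10.80 (median 10.65) and from 9.70 to 10.07 (median 9.92) and fell by 0.73 ± 0.11 without overlap. With total count scaling its value was -0.18, and the median of the list was 0.30. With the 2 libraries left out, 4 rose and 9 fell. In the heart (20 symbols, 14 IDs), 1 of 12 genes tested rose (8.33%) and 4 fell (33.3%), against 8.91% and 11% of all genes. The median was -0.42 (0.08 with total count scaling). Without the 2 libraries 1 rose and 3 fell, against 4.03% and 4.51% of all genes. The atrial and ventricular light chain gene MYL7 fell by 1.17 ± 0.20, from 5.61 to 7.18 (median 6.31) to 4.82 to 5.5 (median 5.31). cmlc1 and actc1a fell by 0.91 ± 0.21 and 0.51 ± 0.15. MYH6 of 1 ID, a heavy chain, rose by 0.90 ± 0.17, from 3.90 to 5.11 (median 4.97) to 5.56 to 6.10 (median 5.71). Another ID named MYH6 was not called (-0.31). nppa, a natriuretic peptide of the heart, fell by 0.97.

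Embryonic globins and other erythroid genes fell. Of 14 tested (23 symbols, 16 IDs), 11 fell and 0 rose, with a median of -1.85, and without the 2 libraries 10 fell, with a median of -1.55. The alpha globin gene hbae3 ran from 12.90 to 14.80 (median 13.70) at 60 hpf and from 10.99 to 12.37 (median 11.68) at 84 hpf. Its groups did not overlap and it fell by 2.21 ± 0.24 (adjusted p = 1.1e-10), or by 1.70 without the 2 libraries. hbae1.1, hbae1.2 and hbae1.3 fell by 2.41 ± 0.26, 2.45 ± 0.29 and 2.52 ± 0.27, and the beta globin gene hbbe3 by 2.52 ± 0.45. The globin copies are alike in sequence, and how reads were divided between them is not given in the sources used here. Among the largest falls were also 2 IDs named HBE1 (-2.75 ± 0.36 and -2.73 ± 0.36, or -1.89 and -1.73 without the 2 libraries). alas2, the first enzyme of haem synthesis in red cells, fell by 1.70 ± 0.27 and SLC4A1 of 1 ID, the anion exchanger of the red cell membrane, fell by 2.13 ± 0.30. cahz, a carbonic anhydrase, fell by 1.63 ± 0.18 and gata1a, the transcription factor of the lineage, by 1.67 ± 0.58. hbaa1, an alpha globin of later stages, had 67 counts at 60 hpf and 1 at 84 hpf. hbae5, UROD and SLC25A37 were not called (0.19, -0.74 and 0.29).

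All 4 hatching gland genes tested (8 symbols, 5 IDs) fell, with a median of -1.55. he1.1, a protease that digests the egg envelope, ran from 7.50 to 8.50 (median 8.19) at 60 hpf and from 5.14 to 6.25 (median 5.68) at 84 hpf, without overlap, and fell by 2.44 ± 0.28 (adjusted p = 5.28e-10). he1.2 fell by 1.68 ± 0.27 and ctslb, a cathepsin of the gland, by 1.43 ± 0.26, both without overlap. klf17, a transcription factor of the gland, fell by 1.41 ± 0.55 and was not called without the 2 libraries (-1.2, adjusted p = 0.284). Whether all larvae of 60 hpf had hatched is not given in the labels.

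Genes of the skin fell in 13 of 23 tested (26 symbols, 25 IDs) and rose in 2, against 11% and 8.91% of all genes. Their median was -0.68. With the 2 libraries left out, 8 fell and 3 rose, with a median of -0.26. anxa1c, an annexin of the outer skin layer, ran from 7.21 to 9.20 (median 8.42) and from 4.97 to 5.91 (median 5.48) and fell by 3.01 ± 0.24 (adjusted p = 4.98e-15), the largest fall among the named genes that passed a mean of 5 log2 CPM. Its value was -2.69 without the 2 libraries. icn2, a calcium-binding S100 gene, fell by 2.13 ± 0.23 (-1.37 without them) and cyt1, a keratin of the outer layer, by 1.63 ± 0.19 (-1.06). Other keratins rose, krt92 by 1.75 ± 0.21 and krt1-19d by 1.58 ± 0.25. krt92 ran from 4.72 to 6.86 (median 6.48) and from 7.44 to 8.90 (median 8.08), without overlap. krt5, a keratin of the basal layer, and TP63, its transcription factor, had values of 0.27 and -0.17 and were not called.

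Of 8 pigment cell genes tested (17 symbols, 14 IDs), 4 fell and 0 rose, against 11% and 8.91% of all genes. The same counts held without the 2 libraries, against 4.51% and 4.03%. gch2, an enzyme of pteridine synthesis in yellow pigment cells, ran from 7.66 to 9.12 (median 8.22) and from 5.08 to 6.63 (median 6.29) and fell by 2.16 ± 0.28 without overlap. pnp4a, a purine nucleoside phosphorylase of iridescent cells, fell by 1.02 ± 0.19. SLC45A2, the gene mutated in this line, was read at 2.27 to 3.94 (median 3.29) and at -1.04 to 2.65 (median 2.01) and fell by 1.41 ± 0.37. Among 19 genes of phagocytes and lymphocytes 4 fell and 1 rose, against 11% and 8.91% of all genes, and 1 fell and 1 rose without the 2 libraries. lyz, the lysozyme of neutrophils and macrophages, ran from 6.00 to 8.59 (median 7.0) and from 4.35 to 5.63 (median 5.01) and fell by 2.27 ± 0.26, or by 1.59 without the 2 libraries. It did not overlap.

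**Figure D4:**
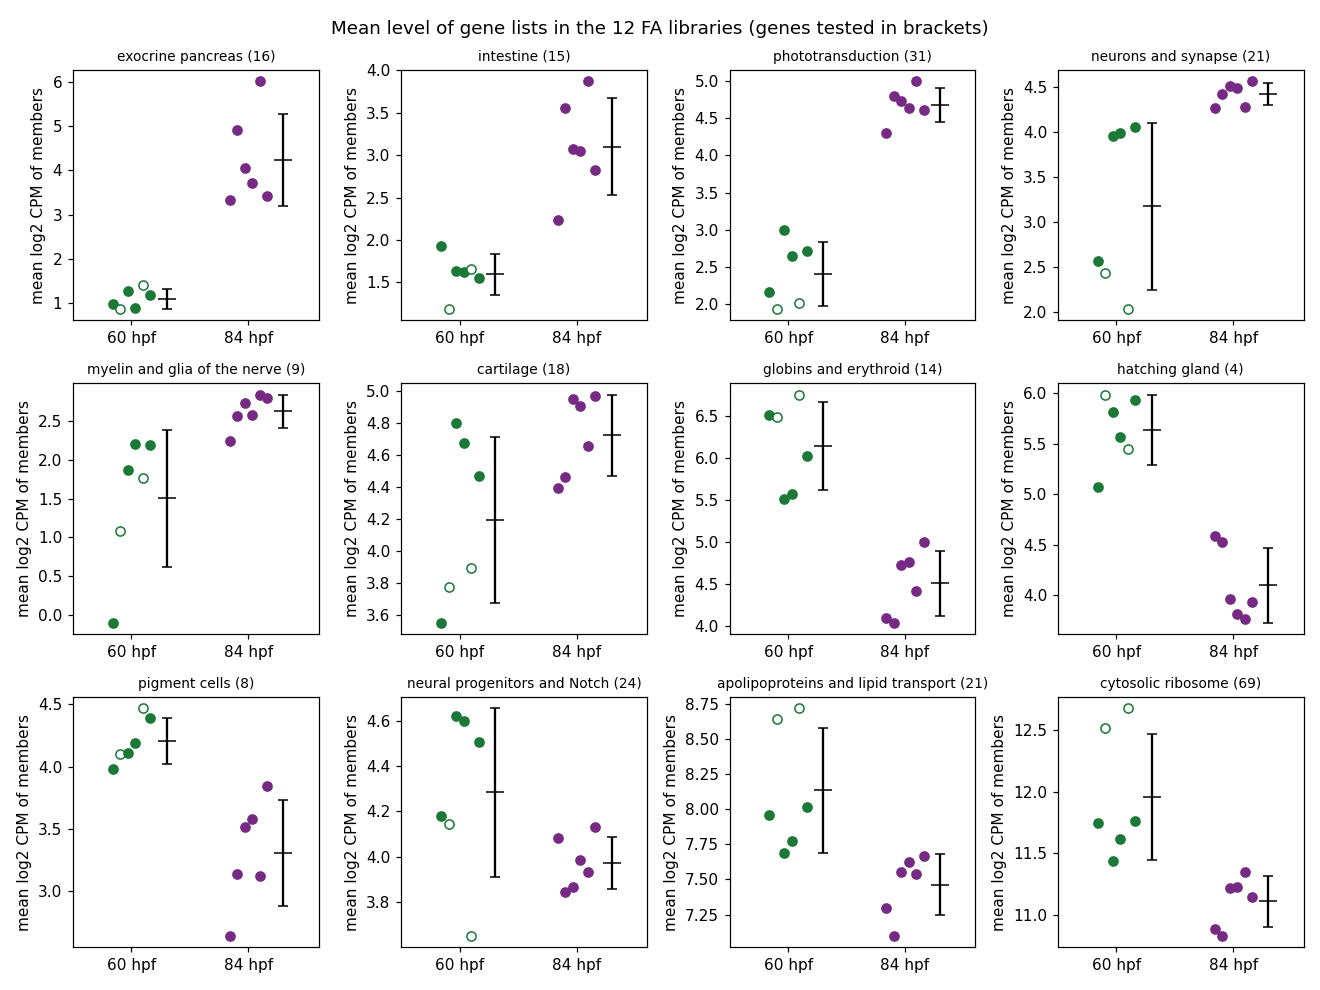
Mean log2 CPM of the tested genes of 12 lists (vertical axes) in each FA larva of 60 and 84 hpf. Open circles are the 2 libraries that stood apart, which lie at the top of the ribosomal and apolipoprotein lists and at the bottom of the neuronal list at 60 hpf; bars are mean ± SD over 6 larvae.

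Cytosolic ribosomal protein genes fell together. Of 69 tested, 67 fell (97.1%) and 0 rose, against 11% and 8.91% of all genes, and the median was -0.94. The groups did not overlap in 59, which were lower at 84 hpf, against 2.93% of all genes. With the 2 libraries left out, 64 fell and the median was -0.56, and it was -0.31 with total count scaling. RPS21 ran from 11.36 to 13.13 (median 11.97) and from 10.65 to 11.26 (median 11.06) and fell by 1.29 ± 0.18. RPL27 fell by 1.2 ± 0.17. The mean level of the list was 12.52 or more in the 2 libraries that stood apart, 11.44 to 11.76 in the other 4 larvae of 60 hpf and 10.83 to 11.35 at 84 hpf, so that the time points did not overlap in either case. In Cont the mean lay between 11.15 and 11.93 at 60 hpf and between 11.09 and 11.42 at 84 hpf, with overlap, and the median log2 fold change of the 69 genes was -0.13. Of 13 genes of the mitochondrial genome, 6 fell and 1 rose with all libraries, against 11% and 8.91% of all genes. Without the 2 libraries 0 fell and 2 rose, against 4.51% and 4.03%. The medians were -0.34 and 0.08, and 0.30 with total count scaling of all libraries.

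Genes of folate and one-carbon metabolism, the pathway that the added FA feeds, did not move as a group. Of 35 tested (46 symbols, 38 IDs), 3 rose and 6 fell, against 8.91% and 11% of all genes, with a median of -0.14 (0.35 with total count scaling). When these 2 libraries were left out, 2 rose and 3 fell. The difference from the change in Cont was called for 1 of the 35, gcsha (-0.88 ± 0.24, adjusted p = 0.0435). Without the 2 libraries it was called for 0. The genes that fell most make purines. PAICS ran from 8.85 to 10.32 (median 9.10) and from 7.49 to 8.44 (median 8.16) and fell by 1.37 ± 0.22 (adjusted p = 3.51e-06), and ATIC, which uses formyl-folate in the last steps of the same pathway, fell by 1.18 ± 0.24. Neither overlapped between time points, and both were called without the 2 libraries (-0.89 and -0.96). Both fell in Cont as well, PAICS by 0.83 ± 0.22 and ATIC by 1.01 ± 0.24. The difference between FA and Cont was not called for either (adjusted p = 0.501 and 0.907). GART, which acts earlier in that pathway, had a value of -1.17 and was not called, with levels of 1.67 or less. MTHFD1L, a mitochondrial enzyme that releases formate, fell by 0.90 ± 0.24 and was not called without the 2 libraries (-0.63, adjusted p = 0.151).

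BHMT, which remethylates homocysteine with betaine, ran from 10.19 to 11.18 (median 11.11) and from 10.15 to 10.41 (median 10.37) and fell by 0.63 ± 0.15, with overlap. In Cont BHMT fell by 0.65 ± 0.14, and the difference was not called (adjusted p = 0.982). AHCYL1, a relative of the enzyme that splits S-adenosylhomocysteine, ran from 2.27 to 4.09 (median 3.44) and from 4.21 to 5.17 (median 4.60) and rose by 1.17 ± 0.23. The glycine cleavage gene gcshb rose by 0.85 ± 0.24, while its other copy gcsha fell by 0.47 ± 0.17, a value of 0.09 with total count scaling, and was not called without the 2 libraries (-0.25, adjusted p = 0.524). GLDC, of the same complex, rose by 1.24 ± 0.51 at an adjusted p of 0.0919 and SHMT1, which links serine to folate, fell by 0.45 ± 0.17 at 0.0616, and neither was called without the 2 libraries. The enzymes nearest to FA were not called. dhfr, which reduces FA to its active form, had a value of -0.58 ± 0.26 (adjusted p = 0.143), TYMS, which makes thymidylate, -0.42 ± 0.18 (0.119), MTR, the methionine synthase, 0.49 ± 0.57 and the carriers SLC19A1 and SLC46A1 -0.29 ± 0.31 and -0.01 ± 0.80. MAT1A, which makes S-adenosylmethionine, had a value of 0.01 ± 0.17, with levels of 5.35 to 6.96 and 6.21 to 6.66.

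Of the genes that the paper follows at 60 and 84 hpf, 5 were tested. Besides apoa4a and MAT1A, ponzr3, a gene of the cysteine-rich onzin family, ran from 5.04 to 8.28 (median 5.98) and from 2.65 to 5.92 (median 3.93) and fell by 2.17 ± 0.50, with overlap. hsp90aa1.1, a chaperone, and FKBP5, a co-chaperone of the glucocorticoid receptor, had values of -0.12 ± 0.20 and 0.46 ± 0.45 and were not called. Of 22 antioxidant genes 3 rose (13.6%) and 9 fell (40.9%), against 8.91% and 11% of all genes. Their median was -0.37 (0.21 with total count scaling). CAT, which encodes catalase, ran from 4.47 to 5.29 (median 4.99) and from 5.71 to 6.49 (median 6.04) and rose by 1.14 ± 0.17 without overlap, whereas prdx5, a peroxiredoxin, fell by 1.1 ± 0.18 and TXN, a thioredoxin, by 0.88 ± 0.16. When these 2 libraries were left out, 3 antioxidant genes rose and 3 fell, against 4.03% and 4.51% of all genes. Among 17 targets of p53, 3 fell and 1 rose, against 11% and 8.91% of all genes. CCNG1 fell by 0.93 ± 0.13, isg20 fell by 0.63 ± 0.17 and SESN1 rose by 0.74 ± 0.18. rps27l fell by 0.79 ± 0.20 and was not called without the 2 libraries (-0.27, adjusted p = 0.494). Among the largest rises outside the lists was tcnba, a carrier of vitamin B12, which ran from 0.85 to 2.80 (median 1.28) and from 5.5 to 7.35 (median 6.23) and rose by 4.55 ± 0.45.

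The change between 60 and 84 hpf in FA was then set against that in Cont, which rests on other larvae. In Cont 1583 genes were called (9.7%), 1042 higher (6.39%) and 541 lower (3.32%). Of the 3256 genes called in FA, 2647 had the same sign in Cont. The share with the same sign among all genes was not computed, so this count cannot be read as particular to the called genes. Both groups called 650 genes higher and 300 lower, and 3 genes were called in opposite directions. Over all genes tested, Pearson's r of the log2 fold changes of FA and Cont was 0.58, and 0.60 without the 2 libraries, as a description across genes, which are not independent. For the lists above, the median log2 fold changes in Cont were 4.85 for exocrine pancreas, 2.21 for intestine, 1.64 for phototransduction, 0.76 for myelin, 0.54 for neurons, 0.38 for cartilage, -2.09 for the hatching gland, -1.01 for globins, -0.72 for neural progenitors and -0.54 for pigment cells. Of these, globins, neurons, myelin and pigment cells were nearer to 0 than in FA (-1.85, 0.87, 0.80 and -0.72). So were apolipoproteins (-0.13 in Cont), the skin (-0.20), ribosomal proteins (-0.13), skeletal muscle (-0.01) and the folate list (-0.04). The sign in Cont was opposite for the liver (0.26), antioxidant genes (0.16) and the mitochondrial genome (0.28). Without the 2 libraries, the FA medians were 0.14 for the liver, 0.08 for the mitochondrial genome and -0.11 for antioxidant genes. They were -1.55 for globins, -0.42 for apolipoproteins, -0.26 for the skin, -0.56 for ribosomal proteins, -0.20 for skeletal muscle and -0.09 for folate genes. Neurons, myelin and pigment cells had 0.63, 0.73 and -0.76.

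The difference between the change in FA and that in Cont was called for 459 genes (2.81%), of which 45 changed more upward (0.276%) and 414 more downward (2.54%) in FA. These counts depend on which libraries enter the fit. Without both libraries that stood apart, 1 gene was called (0.00611%) and 854 had an unadjusted p below 0.05 (5.22%). Without the library of 5295573 counts 4 genes were called, and without that of 2586967 counts 5. With both kept, 2 genes were called when libraries under 50% of the median total were left out, and 5 when the 24 libraries of FA and Cont were fitted alone. Leaving out the FA library of 84 hpf with 680281 or that with 423265 counts gave 159 and 188 genes. Voom with quality weights, a different test, called 7. Of the 69 ribosomal protein genes 56 were called lower than in Cont with all libraries and 0 without the 2, and the same counts were 9 and 0 of 23 for the skin, 7 and 0 of 27 for skeletal muscle, 5 and 0 of 28 for the liver and 5 and 0 of 13 for the mitochondrial genome. The ribosomal share of counts, given above, moves with these calls. Its part in them was not tested.

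**Figure D5:**
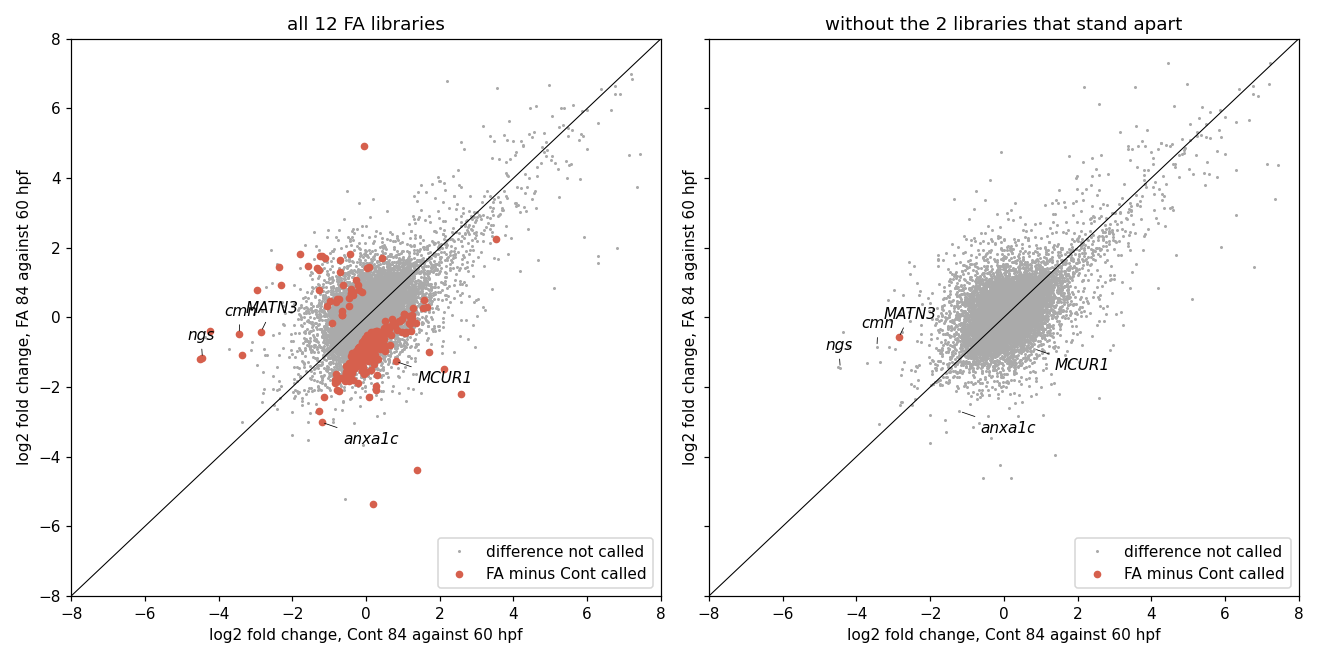
Log2 fold change between 60 and 84 hpf in FA (vertical axis) against that in Cont (horizontal axis), 1 point per gene, with all 12 FA libraries on the left and without the 2 that stood apart on the right. Red points are genes whose changes differed (edgeR, adjusted p below 10%), 459 on the left and 1, MATN3, on the right; the line marks equal change.

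The gene called in both cases was MATN3 (ENSDARG00000069245), a matrilin of cartilage matrix. In FA it ran from 4.72 to 6.04 (median 5.64) at 60 hpf and from 3.72 to 5.71 (median 5.24) at 84 hpf, with overlap. In Cont it ran from 4.79 to 5.77 (median 5.66) and from 2.57 to 3.02 (median 2.82), far apart. The log2 fold change was -0.41 ± 0.27 in FA (adjusted p = 0.365) and -2.85 ± 0.30 in Cont (adjusted p = 5.47e-11), and the difference was 2.44 ± 0.40 (adjusted p = 0.00185), or 2.3 without the 2 libraries (adjusted p = 0.0169). All 6 FA larvae of 84 hpf were above all 6 Cont larvae of that age. MATN3 was named by the test of the difference, which uses these same libraries, so their separation is no further evidence. In XR larvae, irradiated without FA, the levels of 84 hpf spread from 2.71 to 4.89, and in FA + XR from 2.88 to 5.39. Of the 18 genes of the cartilage list, which did not include MATN3, 0 were called for a difference between FA and Cont. For MATN1 the difference was 0.14 ± 0.49 (adjusted p = 0.948). The symbol MATN3 belongs to 2 of the IDs tested. Without the 2 libraries only the ID above was called among all genes, so the lack of a call for the other ID says little about it. The values of that other ID are not reported here.

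Genes of the notochord, the axial rod of the embryo, were also higher in FA than in Cont at 84 hpf where the difference was called. Of 9 symbols 4 genes were tested. ngs, a notochord granular surface gene, fell in FA by 1.18 ± 0.41 (adjusted p = 0.0416), from 3.71 to 5.48 (median 4.77) to 2.03 to 4.36 (median 3.57). In Cont it fell by 4.44 ± 0.50, from 4.03 to 5.42 (median 5.15) to -0.41 to 1.31 (median 1.01). The difference was 3.26 ± 0.65 (adjusted p = 0.0172), and 3.0 without the 2 libraries, where the adjusted p was 0.18. cmn, which encodes calymmin of the notochord sheath, had a value of -0.48 ± 0.42 in FA and fell by 3.44 ± 0.50 in Cont, and the difference was 2.97 ± 0.66 (adjusted p = 0.0306), or 2.63 without the 2 libraries (adjusted p = 0.43). For both genes all FA larvae of 84 hpf were above all Cont larvae of that age. Both were named by the test of the difference, which uses these same libraries, so their separation is no further evidence. Larvae irradiated without FA ran from 0.49 to 4.53 for ngs and from -1.04 to 3.92 for cmn at 84 hpf. FA + XR larvae of that age ran from 1.27 to 5.08 for ngs and from 1.93 to 4.25 for cmn.

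Genes that changed more downward in FA included anxa1c, with a difference from Cont of -1.80 ± 0.32 (adjusted p = 0.00392, and 0.154 without the 2 libraries). MCUR1, a mitochondrial protein linked to calcium uptake, ran from 3.06 to 4.55 (median 3.61) and from 1.93 to 3.08 (median 2.46) in FA, where it fell by 1.27 ± 0.28, and rose by 0.81 ± 0.27 in Cont. The difference was -2.07 ± 0.39 (adjusted p = 0.00963), and -1.68 without the 2 libraries (adjusted p = 0.305). lypc ran from 5.19 to 6.68 (median 5.56) and from 4.58 to 5.42 (median 5.16) in FA. It fell there by 0.80 ± 0.22 and rose by 0.64 ± 0.21 in Cont. The difference was -1.44 ± 0.30 (adjusted p = 0.0306), and -0.87 without the 2 libraries (adjusted p = 0.886). The change of lypc in FA was then -0.27 (adjusted p = 0.582).

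Against FA + XR, in which 1022 genes were called between 60 and 84 hpf (6.26%), 701 higher (4.3%) and 321 lower (1.97%), the difference was called for 8 genes (0.049%) and had an unadjusted p below 0.05 in 1869 (11.5%), the 8 changing more downward in FA without irradiation. Those with the smallest p were anxa1c (-1.82), tcnbb (-1.58), another carrier of vitamin B12, and the linker histone gene H1-10 (-1.05). H1-10 was the gene called without the 2 libraries, with a difference of -0.99, and it was 1 of 1 called (0.00611%). FA, FA + XR and Cont share no libraries, but both differences rest on the same 12 FA libraries.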

How the data were processed

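Whole larvae were sequenced singly, and the deposited table holds estimated counts of reads for 25907 Ensembl genes in 96 libraries, which the authors made against GRCz11 transcripts; the quantifier is not given in the sources used here. The estimated counts deposited by the authors are whole numbers except 3 values, which were rounded. Columns were assigned to groups through their names and the sample labels. Symbols were found for 23608 IDs.

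The 48 libraries of 60 and 84 hpf (8 groups of 6) were fitted together with edgeR 4.0.16 in R 4.3.3 (TMM factors, quasi-likelihood F test, Benjamini-Hochberg adjustment), for 16314 genes that reached a mean of 2.5 counts. A gene was called at an adjusted p below 10%. Standard errors were taken from the log2 fold change and the F statistic. Levels are log2 CPM with a prior count of 2. In an exact two-sided permutation test, 6 against 6 larvae cannot go below p = 0.00216. Total counts of 423265 to 15553304 set the precision of genes with few counts.

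The 38 gene lists (1044 symbols, 795 matched, 15 of them by a synonym) and the libraries described were chosen with earlier results of these data known. Genes were named by rule: those followed by the paper, up to 3 called members of each list in each direction with the smallest p, the 15 largest rises and falls with a level of at least 5 log2 CPM and no overlap, the 10 smallest p for FA against Cont, and members of the folate, hatching gland and globin lists. Other list members, tcnbb and H1-10 were named after their values were seen. Alternatives included RLE factors, total count scaling, DEGES normalization, DESeq2 1.42.0, voom with quality weights (limma 3.58.1), other filters, fits of fewer groups and leaving out libraries. Other time points were not used. Values of some genes of the lists are not reported here.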

Additional observations from a re-analysis of the deposited data

Results flagged for a closer look

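In 15 of 206 sets of 6 values examined (list means and gene levels in FA at 1 time point), 1 library lay far from the other 5. Chance passes the limit used in about 1 in 20 sets of independent, normally distributed values. These sets share libraries and genes, so 15 of 206 cannot be set against that rate. The far library was the shallowest of its time point in 13 of the 15 sets, that of 767872 counts in 8 and that of 423265 counts in 5. Their low depth moves with these values, and its part in them was not tested.

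At 60 hpf the library of 767872 counts was the lowest. Its mean log2 CPM was 8.98 for skeletal muscle (next 9.53), 3.48 for DNA replication (3.92), 2.52 for endothelium (2.96), 3.80 for folate and one-carbon metabolism (4.19) and 3.17 for xenobiotic metabolism (3.57). Among genes it was at -1.04 for gnb3b (next 1.67), at -1.04 for myhb (2.38) and at 2.64 for rlbp1b (3.91). ATIC was highest in the library of 2586967 counts, one of the 2 that stood apart, at 7.68 (next 6.81).

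At 84 hpf the library of 423265 counts was the lowest, with a mean of 3.69 for bone (next 4.4), 9.08 for skeletal muscle (9.46), 3.24 for DNA replication (3.80), 3.73 for folate and one-carbon metabolism (4.12) and 5.0 for chaperones (5.47). The larva of 4175568 counts was highest for the lens list, at 6.60 (next 6.00).

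The change from 60 to 84 hpf differed between FA and Cont in 459 genes, and between FA and FA + XR in 8, by the edgeR test of the difference. Values are given here for 16 of the genes examined singly that were among the 459. This list is not complete, since gcsha, cahz, col1a1a, prdx5 and others examined singly were also among the 459. The log2 fold change in FA minus that in Cont was 3.26 for ngs, 2.97 for cmn and 2.44 for MATN3. The values in FA were -1.18, -0.48 and -0.41, and those in Cont -4.44, -3.44 and -2.85. The difference was -2.23 for si:ch73-103b2.1, -2.07 for MCUR1, -1.80 for anxa1c, -1.48 for si:dkey-51e6.1, -1.44 for lypc, -1.43 for icn, -1.41 for icn2, -1.13 for lyz, -1.09 for cyt1, -1.06 for RPS21, -1.03 for pvalb1, -1.01 for RPL27 and -0.74 for TNNC2. Without the 2 libraries that stood apart, 1 of the 16, MATN3, was called.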

How the results depend on the processing

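The count of 3256 genes called between 60 and 84 hpf in FA (1454 higher, 1802 lower) became 1398 (660 and 738) without the 2 libraries that stood apart, 2120 (765 higher) with DEGES normalization, 1663 (687 and 976) with the 12 FA libraries fitted alone, 6039 (5582 and 457) with total count scaling and 1312 (809 and 503) at a change of at least 2-fold. Leaving out 1 FA library at a time gave 2335 to 3571 genes (1000 to 1616 higher, 1335 to 1955 lower). RLE factors, DESeq2, voom with quality weights, other filters, the lower threshold and leaving out shallow libraries stayed within 1.5 times.

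The 459 genes that differed between FA and Cont became 1 without the 2 libraries, 931 with DESeq2, 2 without libraries under 50% of the median total, 5 with 24 libraries fitted, 271 with total count scaling, 7 with voom with quality weights and 223 at an adjusted p below 5%. Leaving out 1 library gave 4 (without that of 5295573 counts) to 843 (without that of 3075416), with 5 without that of 2586967, 743 without that of 5141929, 188 without that of 423265 and 159 without that of 680281. The 8 genes that differed from FA + XR became 1, 818 with DESeq2 and 26 with voom, and 3 to 686 when 1 library was left out. The causes were not tested.

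Of the named genes called with TMM factors or with total count scaling, the latter turned the sign of AHCY (0.30), col1a1a (0.05), gcsha (0.09), HSPB1 (0.10), MT-CYB (0.20), pmela (0.07), SHMT1 (0.09) and SPARC (0.09). Of 198 named genes, 152 kept their side of the threshold and 46 lost their call without the 2 libraries. No paired analysis was possible because the columns carry no replicate number. Promoter motifs were not examined.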

Other observations

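Among genes of drug and steroid metabolism, 4 of 15 rose and 4 fell in FA between 60 and 84 hpf. Each was 26.7%, against 8.91% and 11% of all genes. abcc2, an exporter of conjugated compounds in liver and kidney, ran from -1.04 to 2.35 (median 1.28) at 60 hpf and from 1.83 to 3.96 (median 3.30) at 84 hpf and rose by 1.74 ± 0.42 (edgeR, adjusted p = 0.00175), with overlap. Without the 2 libraries that stood apart 4 of the list rose and 0 fell, against 4.03% and 4.51% of all genes. In the pronephros, the larval kidney, 3 of 10 genes rose and 0 fell, with a median of 0.52, and 1 rose without the 2 libraries. Of 14 genes of peptide hormones 1 rose and 0 fell, of 12 clock genes 2 rose and 0 fell, and of 25 chaperone genes 0 rose and 2 fell, shares to be read against 8.91% and 11% of all genes. In the fit without those larvae, 0 clock and 0 chaperone genes were called (edgeR).

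The larvae of FA at 60 hpf differed from each other more than those of FA at 84 hpf and of Cont, as a description with no test. Over 2142 genes with a mean of at least 5 log2 CPM, the median SD was 0.46 in FA at 60 hpf, 0.27 in FA at 84 hpf, 0.28 in Cont at 60 hpf and 0.17 in Cont at 84 hpf. Without the 2 libraries that stood apart it was 0.28 in FA at 60 hpf.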
